A study of Mus musculus with 6 samples.

Results

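The 10 genes described here encode the matrix proteins of the tectorial membrane and of neighboring matrices of the inner ear. They are *Tecta*, *Tectb*, *Otog*, *Otogl*, *Otoa*, *Ceacam16*, *Epyc*, *Matn4*, *Emilin2* and *Otol1*. They were listed by name, with earlier results of these data known though by no threshold on the measured values, and are 10 of the 20259 genes that could be named on the arrays. The arrays were hybridized with RNA of cochlear epithelium from mouse embryos, dissected at embryonic day 15.5 (E15.5) and grown as explants. The study's results call this tissue wild type, while its culture methods name embryos of a transgenic GFP reporter line. Its mouse lines were kept on a mixed strain background. In each of 3 experiments a pool of explants was cultured with 3.33 µM of the γ-secretase inhibitor DAPT and another pool with the vehicle DMSO at 0.013% (control), so that each group held 3 arrays. The sample labels give culture times of 23, 19 and 24 hours for experiments 1, 2 and 3. The times in the study's design text and results text differ from these at least in part, so the times used here are those of the labels. The small number of arrays limits the precision of every value below.

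The tectorial membrane is the acellular sheet that lies over the hair cells (HCs) and deflects their stereocilia when sound arrives. Before birth its proteins are secreted at the apical face of the greater epithelial ridge (GER), the columnar epithelium next to the sensory domain, and of supporting cells (SCs). Collagen fibrils are embedded in it in a striated sheet matrix of α-tectorin, β-tectorin and CEACAM16, with otogelin and otogelin-like as further large glycoproteins, and otoancorin anchors the membrane to the apical face of the cells beneath it. DAPT blocks the cleavage that releases the intracellular part of Notch receptors, which acts on genes together with the DNA-binding protein RBPJ.

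Promoter windows from RefSeq (build GRCm38.p6), each reaching from 250 bases before to 50 bases after a transcription start, were matched for 8 of the 10 genes, in 12 windows of 300 bases. The windows of *Tectb* and *Otoa* are shown because these genes had the most distinct differences between DAPT and control, in opposite directions. *Tecta* was added because its protein is the closest relative of the *Tectb* product among the 10. It had 2 windows, and the one shown was picked because it holds an RBPJ core, which the other does not. Capitals mark the core letters TGGGAA of RBPJ sites, or TTCCCA where the core lies on the other strand.
Tectb (GRCm38.p6, chr19:55180476-55180775, plus strand): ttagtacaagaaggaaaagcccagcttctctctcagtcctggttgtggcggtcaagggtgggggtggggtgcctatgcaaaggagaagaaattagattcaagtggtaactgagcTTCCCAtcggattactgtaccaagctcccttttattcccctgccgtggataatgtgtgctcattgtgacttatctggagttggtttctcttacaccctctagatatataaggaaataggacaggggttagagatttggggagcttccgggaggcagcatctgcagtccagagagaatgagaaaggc
Otoa (GRCm38.p6, chr7:121083174-121083473, plus strand): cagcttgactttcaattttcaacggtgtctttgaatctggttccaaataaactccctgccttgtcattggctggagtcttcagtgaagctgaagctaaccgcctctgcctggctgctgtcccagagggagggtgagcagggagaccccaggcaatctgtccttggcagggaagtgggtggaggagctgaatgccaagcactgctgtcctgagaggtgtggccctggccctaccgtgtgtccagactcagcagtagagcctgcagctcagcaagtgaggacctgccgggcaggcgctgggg
Tecta (GRCm38.p6, chr9:42401641-42401940, minus strand): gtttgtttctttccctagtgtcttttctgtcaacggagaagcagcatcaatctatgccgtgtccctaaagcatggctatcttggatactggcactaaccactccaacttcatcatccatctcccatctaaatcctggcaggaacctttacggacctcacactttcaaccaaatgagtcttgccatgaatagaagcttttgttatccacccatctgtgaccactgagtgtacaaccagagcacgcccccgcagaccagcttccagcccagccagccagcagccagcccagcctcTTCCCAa
The *Tectb* window held 1 core, at −136 from the start, the printed *Tecta* window held 1 core, at 43, and the *Otoa* window held 0. Searched on both strands, the core was in 4 of the 12 windows, 1 each of *Tectb*, *Tecta*, *Matn4* and *Emilin2*, and in 25.6% of all 32851 promoter windows. The longer form GTGGGAA, which contains the core, was in 0 of the 12 windows and in 6.38% of all. The letters TATAA were found in the windows of *Tectb* and *Otol1* and in 24.9% of all windows. These matches describe the letters only.

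With DAPT, *Tectb* had lower and *Otoa* had higher signals within each of the 3 experiments, and the other 8 genes had differences whose 95% intervals included 0. None of the 10 genes passed the test over all genes, which was limma with the experiment as a block and with Benjamini-Hochberg adjustment at 0.05. In that test 0% of all genes were called, and the lowest adjusted p of any gene was 0.0591. At an unadjusted p under 0.05, 1 of the 10 genes was lower (*Tectb*) and 1 was higher (*Otoa*), beside 2.59% of all genes lower, 5.27% higher and 7.86% in either direction. Without the block 0 of the 10 were under that p. The DAPT and control arrays overlapped for all 10 genes, whereas in 7.29% of all genes they did not. The median difference of the 10 genes was −0.09 on the log2 scale, and that of all genes was 0.02. For comparison, *Jag1*, a Notch ligand of the sensory domain, had a difference of −1.24 (95% interval −1.45 to −1.03) and *Atoh1*, the transcription factor that starts HC formation, of 1.18 (0.98 to 1.39), each with an adjusted p of 0.0591 in limma. The 10 intervals together reached from −0.59 to 0.49, so that none of them included a difference as large as that of *Jag1* or *Atoh1*.

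**Figure D1:**
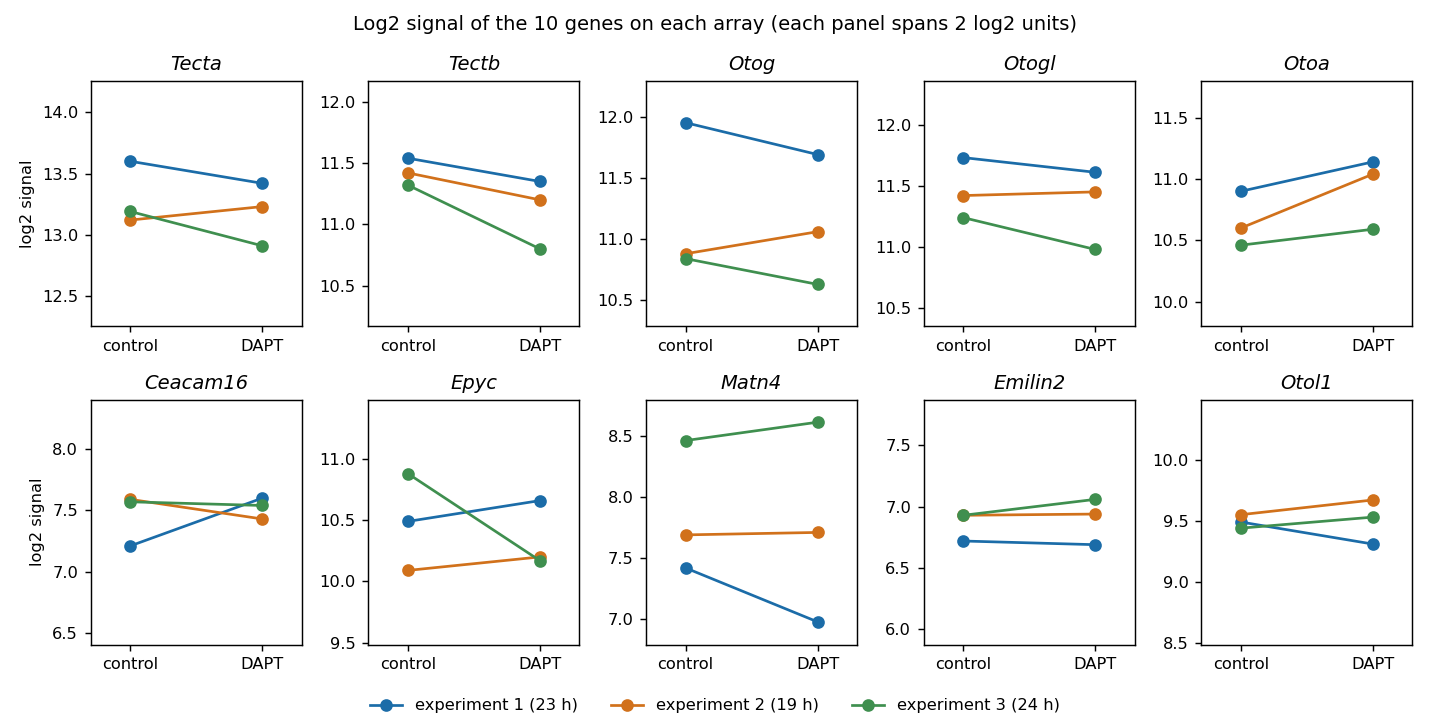
Log2 signal (vertical axis) of each of the 10 genes on the control and the DAPT array (horizontal axis), with a line joining the arrays of an experiment and each panel spanning the same range of 2 log2 units. The 3 lines slope down for *Tectb* and up for *Otoa*. Experiment 1 lies above the others for *Otog*, and experiment 3 lies above the others for *Matn4*.

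The tectorins carry the zona pellucida domain by which such proteins polymerize, and both are held at the cell surface by a lipid anchor before release. *Tectb* encodes β-tectorin. Its log2 signals were 11.54, 11.42 and 11.32 on the control arrays of experiments 1, 2 and 3 and 11.35, 11.20 and 10.80 on the DAPT arrays. Each DAPT array lay below the control of its own experiment, but the groups overlapped, since DAPT in experiment 1 was above control in experiment 3. The control mean was 11.43 ± 0.11 and the DAPT mean 11.12 ± 0.29 (SD, n = 3 each). The difference was −0.31 (standard error (SE) 0.10, 95% interval −0.54 to −0.07), which is a signal 0.807 times that of control (0.686 to 0.949), with an unadjusted p of 0.0183 and an adjusted p of 0.474 in limma. It was −0.52 in experiment 3, against −0.18 and −0.22 in experiments 1 and 2, and without experiment 3 the unadjusted p in limma was 0.0991. A lower signal in bulk tissue can come from fewer cells of a type or from less RNA per cell, which cannot be told apart here.

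*Tecta* encodes α-tectorin, the large partner of β-tectorin. Its log2 signals were 13.60, 13.12 and 13.19 on the control arrays and 13.42, 13.23 and 12.91 on the DAPT arrays. DAPT was below control in experiments 1 and 3 and above it in experiment 2. The difference was −0.11 (SE 0.10, 95% interval −0.36 to 0.13, unadjusted p = 0.295 and adjusted p = 0.849 in limma). Whether *Tecta* and *Tectb* differed from each other in their response was not tested, and their intervals overlapped.

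*Otog* and *Otogl* encode otogelin and its relative, very large secreted proteins with von Willebrand D domains, as mucins have. *Otog* had log2 signals of 11.95, 10.88 and 10.84 on the control arrays and of 11.69, 11.06 and 10.63 on the DAPT arrays. Both arrays of experiment 1 lay above the 4 others, and the gap between experiments was larger than that between treatments. The difference between DAPT and control was −0.09 (SE 0.11, 95% interval −0.36 to 0.17, unadjusted p = 0.428 and adjusted p = 0.907 in limma). *Otogl* had log2 signals of 11.73, 11.42 and 11.24 with control and 11.61, 11.45 and 10.98 with DAPT. The values of the treatments lay close together in experiments 1 and 2 and apart in experiment 3. The difference was −0.11 (SE 0.09, 95% interval −0.33 to 0.10, unadjusted p = 0.239 and adjusted p = 0.822 in limma). A second probe cluster of *Otogl* gave a mean difference of −0.06, with −0.19, 0.20 and −0.18 in the 3 experiments, so the sign in each experiment was that of the first cluster. *Tecta*, *Otog* and *Otogl* shared this order of signs, lower with DAPT in experiments 1 and 3 and higher in experiment 2, which 8.19% of all genes had.

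*Otoa* encodes otoancorin, a surface protein related to mesothelin and stereocilin that attaches the membrane to the cells beneath its medial edge. Its log2 signals were 10.90, 10.60 and 10.46 on the control arrays and 11.14, 11.04 and 10.59 on the DAPT arrays. DAPT was above control within every experiment, yet the groups overlapped, since DAPT in experiment 3 was below control in experiments 1 and 2. The control mean was 10.65 ± 0.22 and the DAPT mean 10.92 ± 0.29 (SD, n = 3 each). The difference was 0.27 (SE 0.09, 95% interval 0.05 to 0.49), a signal 1.20 times that of control (1.03 to 1.40), with an unadjusted p of 0.0259 and an adjusted p of 0.531 in limma. It was smallest in experiment 3 (0.12) and largest in experiment 2 (0.44), and the unadjusted p in limma was 0.0553 without experiment 1 and 0.183 without experiment 2. A difference of the same sign in all 3 experiments was found in 19.1% of all genes for the higher and in 10.5% for the lower direction.

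Because the differences of *Tectb* and *Otoa* had opposite signs, the gap between them within each array was also taken, after both had been seen. The log2 signal of *Otoa* minus that of *Tectb* was −0.64, −0.82 and −0.86 on the control arrays and −0.22, −0.16 and −0.22 on the DAPT arrays. All DAPT arrays lay above all control arrays in this measure. A rise within every experiment was fixed once a gene higher and a gene lower in each had been chosen. How many other pairs chosen in this way would separate was not counted. The shift within experiments was 0.42, 0.66 and 0.64, with a mean of 0.58 ± 0.13 (SD, n = 3). The pair was chosen for this shift, so no test was made of it, and a ratio of probe clusters shows unequal change and no ratio of RNA amounts.

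**Figure D2:**
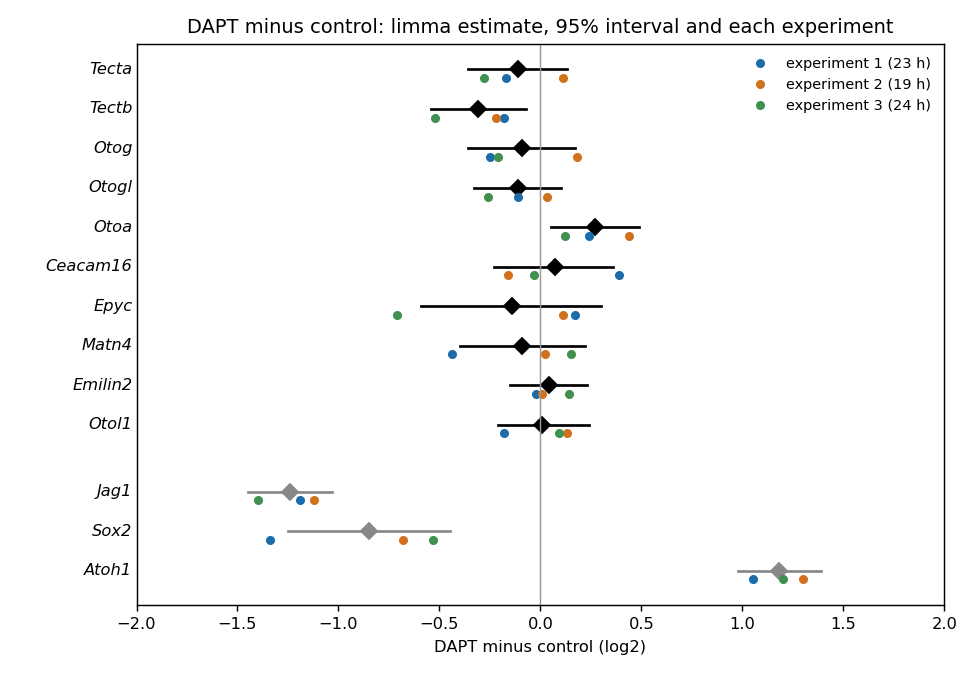
DAPT minus control on the log2 scale (horizontal axis) for the 10 genes and, in gray, for *Jag1*, *Sox2* and *Atoh1*, with diamonds for the limma estimate, bars for its 95% interval and small circles for each experiment. Of the 10 genes only *Tectb*, at −0.31, and *Otoa*, at 0.27, have intervals that leave out 0, and both lie nearer to 0 than the 3 gray genes.

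*Ceacam16* encodes a secreted adhesion protein of the striated sheet matrix, which in mice is made largely after birth. Its log2 signals were 7.21, 7.59 and 7.57 on the control arrays and 7.60, 7.43 and 7.54 on the DAPT arrays. They lay below the median gene signal of 7.78, and experiment 1 had the opposite sign to the others. The difference was 0.07 (SE 0.12, 95% interval −0.23 to 0.36, unadjusted p = 0.600 and adjusted p = 0.951 in limma). A second cluster had differences of −0.67, −0.71 and 0.19, opposite in sign to the first in experiments 1 and 3, so these clusters give no direction for *Ceacam16*.

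*Epyc* encodes epiphycan, a small leucine-rich proteoglycan of cartilage that is also made in the ridge and SCs of the cochlea. Its log2 signals were 10.49, 10.09 and 10.88 with control and 10.66, 10.20 and 10.17 with DAPT. DAPT was above control in experiments 1 and 2 and well below it in experiment 3, where the difference was −0.71. Over the 3 experiments the difference was −0.14 (SE 0.18, 95% interval −0.59 to 0.30, unadjusted p = 0.458 and adjusted p = 0.915 in limma), the widest interval among the 10 genes. *Dcn*, *Lum* and *Kera*, which encode related proteoglycans and precede *Epyc* in the gene order of the chromosome, had differences of −0.04, 0.03 and 0.16.

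*Matn4* encodes a matrilin, an adaptor of extracellular matrix networks, *Emilin2* encodes a glycoprotein found in the basilar membrane, and *Otol1* encodes otolin, a short-chain collagen of the otoconial matrix. *Matn4* had log2 signals of 7.42, 7.69 and 8.46 with control and of 6.98, 7.71 and 8.61 with DAPT. The arrays of experiment 1 were lowest and those of experiment 3 highest in either treatment. The difference between treatments was −0.09 (SE 0.13, 95% interval −0.40 to 0.22, unadjusted p = 0.498 and adjusted p = 0.928 in limma), with −0.44, 0.02 and 0.15 in the 3 experiments. *Emilin2* had log2 signals of 6.72, 6.93 and 6.93 with control and 6.69, 6.94 and 7.06 with DAPT, all below the median gene. Its treated and control arrays nearly coincided in experiments 1 and 2, and the difference was 0.04 (SE 0.08, 95% interval −0.15 to 0.23, unadjusted p = 0.614 and adjusted p = 0.953 in limma). *Otol1* had log2 signals of 9.49, 9.55 and 9.44 with control and 9.31, 9.67 and 9.53 with DAPT. The sign was negative in experiment 1 and positive in the others, and the difference was 0.01 (SE 0.09, 95% interval −0.21 to 0.24, unadjusted p = 0.890 and adjusted p = 0.988 in limma).

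The collagens that form the fibrils of the membrane were measured by 6 genes of types II, IX and XI. None of them passed at an unadjusted p under 0.05, and their median difference was −0.05, with *Col9a1* at −0.16 (adjusted p = 0.733 in limma). Of 9 proteases and lipases that can release anchored proteins from membranes, 0 passed and the median was 0.05, with the Wnt lipase gene *Notum* at 0.18 (adjusted p = 0.676 in limma). At an unadjusted p under 0.05, 5.27% of all genes were higher and 2.59% were lower. Of 18 genes of the secretory route, 0 were higher and 2 were lower at that p. These were *Mia3*, which exports large cargo such as collagen from the endoplasmic reticulum, at −0.21 (adjusted p = 0.547 in limma), and *Plod2*, a collagen lysyl hydroxylase, at −0.26 (adjusted p = 0.612 in limma).

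Among relatives of the 10 genes by protein family, 0 of 11 zona pellucida genes, 0 of 7 von Willebrand D genes, 0 of 4 emilin relatives and 0 of 3 mesothelin relatives had an unadjusted p under 0.05. The largest differences in the first 3 families were 0.12 for *Zp3*, 0.11 for *Muc19* and 0.11 for *Mmrn1*. In the last family *Mslnl* had a difference of 0.30 (adjusted p = 0.638 in limma) and *Strc*, the stereocilin gene of HCs, of 0.19 (adjusted p = 0.657 in limma). Both lay on the same side of 0 as *Otoa*, but *Msln* had 0.00, and the signal of *Strc* was below that of the median gene. *Matn1*, the cartilage matrilin, was the 1 of 4 matrilin relatives at an unadjusted p under 0.05, with 0.44 (SE 0.08, adjusted p = 0.288 in limma), in contrast to −0.09 for *Matn4*. *Ogn* was the 1 of 10 small leucine-rich proteoglycan genes, with 0.27 (adjusted p = 0.436 in limma), and *C1ql1* the 1 of 6 relatives of *Otol1*, with 0.32 (adjusted p = 0.363 in limma). Of 9 further genes of otoconia formation, *Otop1* (0.51) and *Atp2b2* (0.28) were higher and *Sparcl1* (−0.28) was lower at an unadjusted p under 0.05. Over all genes 7.86% were under that p in either direction, so 0 or 1 gene in lists this short says little about a family.

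Of 11 GER markers, 6 were lower and 1 was higher at an unadjusted p under 0.05, and the median was −0.26. The 6 lower GER markers were *Jag1*, *Inhba*, *Dkk3*, *Lfng*, *Ano1* and *Fgf10*. *Jag1* is not particular to the ridge, since the study describes it in pro-sensory cells and later in SCs. Of 13 SC markers 6 were lower, 0 were higher and the median was −0.25. Over all genes 2.59% were lower and 5.27% were higher at that p. The 6 lower SC markers were *Hes5*, *Hey1* and *Hey2*, transcriptional repressors known as Notch targets, the pro-sensory transcription factors *Sox2* and *Prox1*, and *Fabp7*, a fatty acid binding protein. The other 7 SC markers had differences from −0.25 (*Cdkn1b*) to 0.29 (*Ptprz1*), with 0.02 for *Slc1a3*, 0.02 for *S100a1* and −0.07 for *Fgfr3*. The value of *Ptprz1* is that of the brightest of its 7 clusters, and the other clusters were not described. It was 0.39, 0.93 and −0.45 in experiments 1, 2 and 3 (SE 0.25, unadjusted p = 0.287 in limma), which gives no clear direction. *Inhba*, which encodes an activin subunit, had a difference of −0.66 (SE 0.10) and *Dkk3*, a secreted protein related to Wnt antagonists, of −0.60 (SE 0.09), with adjusted p values of 0.203 and 0.235 in limma. *Fst*, which encodes the activin antagonist follistatin, was the 1 higher GER marker (0.27), and *Cst3* (−0.03) and *Calb1* (−0.01) were near 0. All 10 HC markers were higher at an unadjusted p under 0.05, with a median of 0.69. The marker lists were chosen with earlier results of these data known. The study's gene ontology analysis named *Prox1* and *Ptprz1* among genes lowered by DAPT on these same arrays, at a looser threshold. For *Ptprz1* the cluster used here does not show this. The study had also listed *Jag1*, *Inhba*, *Dkk3*, *Lfng*, *Hes5*, *Hey1*, *Hey2*, *Sox2* and *Fabp7* as lowered by DAPT on these arrays. It had listed *Atoh1*, *Pou4f3*, *Calb2*, *Ptprq*, *Otof* and *Lhx3* as raised, so the counts of these lists are no separate evidence. *Ptprq*, which encodes a phosphatase of HC stereocilia and is the direct neighbor of *Otogl* in the gene order, had a difference of 0.91 (SE 0.13, adjusted p = 0.197 in limma), whereas *Otogl* had −0.11. Whether a changed number of HCs, SCs or ridge cells had a part in the values of *Tectb* and *Otoa* was not tested. Of 10 mesenchymal markers 1 was lower (*Postn*, −0.32), of 8 neuronal markers 1 was lower (*Isl1*, −0.40) and of 6 endothelial markers 1 was higher (*Kdr*, 0.24) at an unadjusted p under 0.05. *Isl1* does not stand for the neuronal list, whose median difference was 0.14. Its means in experiments 1, 2 and 3 were 9.96, 9.83 and 9.35, against 9.04, 10.50 and 10.87 for the neurofilament gene *Nefl*. Of 6 epithelial markers 1 was lower at that p, *Krt8* at −0.28 (adjusted p = 0.475 in limma), and their mean log2 signal differed between DAPT and control by 0.04, −0.16 and −0.24 in the 3 experiments.

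The levels of the 10 genes were also compared between experiments. *Tecta*, *Tectb*, *Otog*, *Otogl* and *Otoa*, the 5 tectorin, otogelin and otoancorin genes, had their highest experiment mean in experiment 1 and their lowest in experiment 3, an arrangement that 22.4% of all genes had. The means of experiments 1, 2 and 3 were 13.51, 13.17 and 13.05 for *Tecta*, 11.45, 11.31 and 11.06 for *Tectb* and 11.82, 10.97 and 10.73 for *Otog*. Those of *Otogl* were 11.67, 11.43 and 11.11 and those of *Otoa* 11.02, 10.82 and 10.53. *Matn4* (7.20, 7.70 and 8.53), *Emilin2* (6.71, 6.94 and 6.99) and *Ceacam16* (7.41, 7.51 and 7.55) had the reverse arrangement, which 20.6% of all genes had. *Epyc* was lowest and *Otol1* highest in experiment 2.

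In the contrast of experiment 2, the shortest culture by the sample labels, with experiments 1 and 3, none of the 10 genes passed after adjustment, beside 0.00987% of all genes, and only *Otog* had an unadjusted p under 0.05 (a difference of −0.31, adjusted p = 0.352 in limma), beside 13.2% of all genes. The contrast of experiment 1 with the others was added after this arrangement had been seen. There 26.8% of all genes had an unadjusted p under 0.05, as did 7 of the 10 genes, 5 of them higher and 2 lower in experiment 1. After adjustment 9.28% of all genes passed, 5.21% as higher in experiment 1, and so did 2 of the 10 genes. *Otog* was higher in experiment 1 by 0.97 (SE 0.11, adjusted p = 0.0126 in limma) and *Matn4* differed by −0.92 (SE 0.13, adjusted p = 0.0200 in limma). *Otogl* at 0.40 (adjusted p = 0.0527 in limma), *Tecta* at 0.40 (adjusted p = 0.0729 in limma) and *Otoa* at 0.34 (adjusted p = 0.0843 in limma) did not pass. Culture time and experiment cannot be told apart.

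Marker lists of different cell types were arranged differently over the experiments. The mean log2 signal of 6 epithelial markers was 10.72, 10.48 and 10.18 in experiments 1, 2 and 3, with 4 of the 6 highest in experiment 1 and lowest in experiment 3. That of 10 mesenchymal markers was 8.96, 9.62 and 9.99, with 9 of the 10 in the reverse arrangement, and 8 of the 10 were lower in experiment 1 after adjustment. Endothelial markers had 7.42, 8.07 and 8.42 (6 of 6 in the reverse arrangement). Neuronal markers had 8.12, 8.98 and 8.97, with 3 of 8 in the reverse arrangement and 1, *Isl1*, in the first. Lists of the ridge and sensory cells followed neither arrangement as a whole, with 3 of 11 GER, 5 of 13 SC and 0 of 10 HC markers in the first and 2, 5 and 1 in the reverse. Signals above that of the median gene were found for 10 of 10 mesenchymal, 5 of 8 neuronal and 3 of 6 endothelial markers in the purified epithelium. By definition 10129 of all 20259 genes lay above it, and the neuronal and endothelial counts were near that share. The 5 neuronal markers included *Isl1*. Within experiments the mesenchymal mean differed between DAPT and control by 0.12, −0.04 and −0.06. The part of other cell types in the levels of *Otog* and *Matn4* was not tested.

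**Figure D3:**
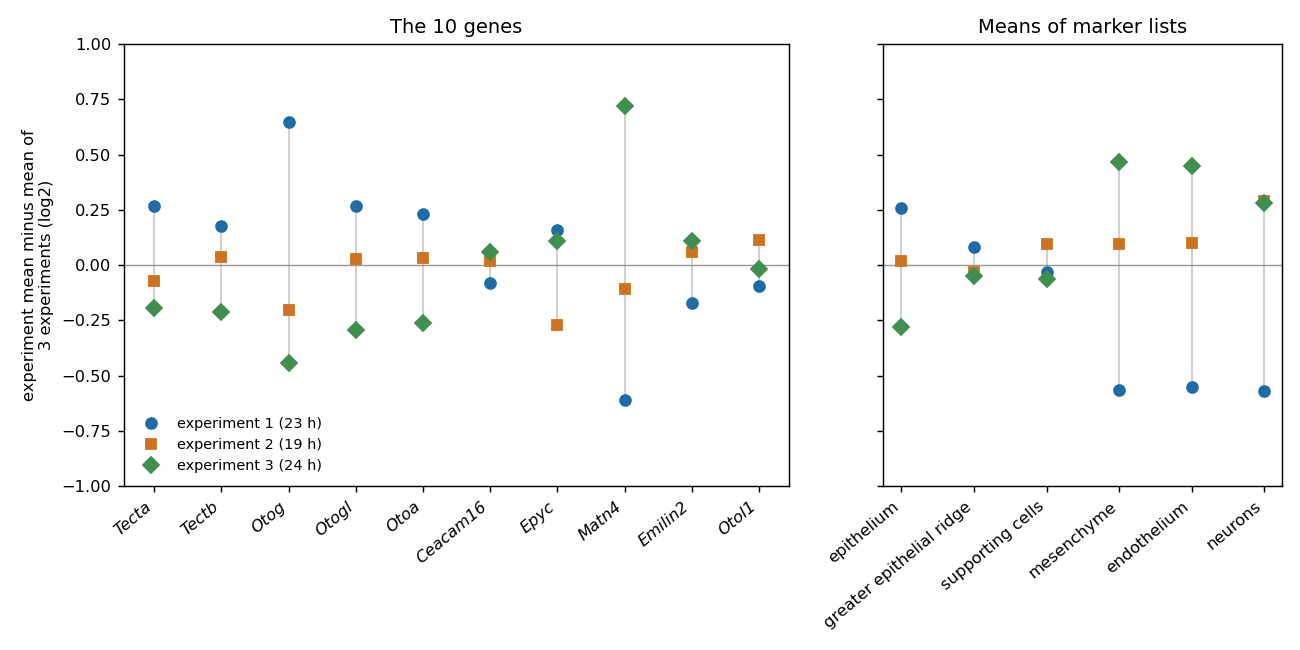
Mean log2 signal of each experiment minus the mean of the 3 experiments (vertical axis) for the 10 genes on the left and for the means of 6 marker lists on the right, with a symbol for each experiment. *Otog* and the epithelial markers are highest in experiment 1, and *Matn4*, mesenchymal and endothelial markers are highest in experiment 3.

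The genes with a pattern most like that of a member were sought among 10129 genes above the median signal for the 3 such members with the widest spread over the arrays. Pearson correlations over 6 arrays describe likeness only, because the arrays are paired by experiment and experiment 1 stands apart. *Otog* was most like *Ell2* (r = 0.999), *Tmtc3* (0.996) and *Tnrc18* (0.995), and 720 genes exceeded 0.9. *Ell2* had log2 signals of 8.84, 8.28 and 8.23 with control and 8.70, 8.37 and 8.13 with DAPT, and so shared with *Otog* both the high experiment 1 and the sign of every treated pair. *Matn4* was most like *Cspg4* (0.997), which encodes a proteoglycan of pericytes, *Gas2l3* (0.990) and *Emilin3* (0.989), and 308 genes exceeded 0.9. *Epyc* was most like *Klf2* (0.980), *Mbd3* (0.977) and *Gpr180* (0.977), and only 16 genes exceeded 0.9. The signal of *Epyc* was highest on the control array of experiment 3. It was low on both arrays of experiment 2 and on the DAPT array of experiment 3. Fewer genes shared this pattern at this correlation than shared the patterns of *Otog* and *Matn4*.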

How the data were processed

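Total RNA of pooled, enzymatically isolated cochlear epithelia was hybridized to Affymetrix Mouse Exon arrays. The deposited unit is the log2 signal of a transcript cluster, made by the authors with RMA and quantile normalization in Partek, with mm9 named in the submitters' processing notes. Median log2 signals were 6.297 to 6.364 over the 6 arrays. Of 115830 clusters, 25539 carried 1 gene name, 2300 several and 87991 none in the platform annotation. Symbols were updated through RefSeq for 24941 clusters, and a gene with several clusters was taken from the brightest, which gave 20259 genes.

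DAPT and control were compared over all genes with limma 3.58.1 (R 4.3.3, lmFit and eBayes, two-sided), with experiment as a block. The series' design text pairs the arrays by experiment. Across genes, deviations of paired arrays from their group means had correlations of 0.556, 0.434 and 0.513, and those of unpaired arrays reached 0.00925 at most. The scripts were tested on simulated data. Tables and plots used Python 3.11.15, pandas 2.3.3, numpy 2.4.6 and matplotlib 3.10.9.

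The 10 genes and the further gene lists were chosen with earlier results of these data known. All 10 were named, and from other lists at most 3 genes with the lowest unadjusted p under 0.05, otherwise the one with the largest difference. Other SC, GER and HC markers, *Strc*, *Msln*, *Nefl* and the neighboring genes are named as points of comparison. Lists not described in the report were glia (4 of 5 measured, 0 at an unadjusted p under 0.05, median 0.04, experiment means 9.80, 9.99 and 9.72) and erythroid cells (1 of 4 measured, 0 under it). The alternatives included leaving out the block, the study's plain one-way model, other priors, array weights, another normalization, filters on low signals, other treatment of clusters and omission of arrays.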

Additional observations from a re-analysis of the deposited data

How the results depend on the processing

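Genes at an unadjusted p under 0.05 numbered 1592 (1067 higher, 525 lower) and became 593 with no replicate block, 705 in the one-way model, 2543 with array weights, 804 with genes below the median signal left out and 6582 with each cluster as a measurement, 1071 to 2305 without an experiment and 426 to 948 without the block and 1 array. The split was 881 higher and 716 lower after another quantile normalization, 886 and 646 after median centring and 3000 and 3582 with each cluster. After adjustment 0 genes passed, against 6 with a trended robust prior, 30 with array weights, 26 with the median filter, 17 with a 25th percentile filter and 6 with the mean of clusters. Of the 10 genes 2 had an unadjusted p under 0.05, against 0 with no replicate block, in the one-way model and with each cluster. This became 1 without any of the experiments, *Tectb* being lost without experiment 3 and *Otoa* without experiment 1 or 2, and 0 to 1 without 1 array and no block. *Tectb* stayed negative (−0.428 to −0.151) and *Otoa* positive (0.161 to 0.435) in all 19 settings, with lowest adjusted p of 0.280 and 0.235. Signs turned for *Otog* (0.0174) and *Ceacam16* (−0.0397) with array weights, *Ceacam16* with the mean of clusters (−0.166) and *Otol1* with median centring (−0.00212). Without an experiment or an array *Tecta* ranged from −0.233 to 0.034, *Otog* from −0.376 to 0.271, *Otogl* from −0.247 to 0.0711, *Ceacam16* from −0.0943 to 0.18, *Epyc* from −0.343 to 0.139, *Matn4* from −0.514 to 0.302, *Emilin2* from −0.0403 to 0.143 and *Otol1* from −0.0718 to 0.109. The contrast of experiment 2 had 2677 genes at an unadjusted p under 0.05 and 2 after adjustment. It had 1523 with the median filter, 11844 with each cluster (0 after adjustment), and after adjustment 8 with the robust prior, 116 with array weights and 7 with the 25th percentile filter. The contrast of experiment 1, added after seeing the data, had 5433 and 1880. The causes of these changes were not tested.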
